A study of Homo sapiens with 15 samples.

Results

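The comparison between 0.1 U and 0.01 U of P1 nuclease covered 6 of the 15 libraries of a titration in K562, an established human chronic myeloid leukemia cell line. The members were the 3 replicates labelled 0.1 U and the 3 replicates labelled 0.01 U, taken from the deposited titles. Both groups were wild-type K562 cells fixed with formaldehyde, lysed to nuclei, opened with SDS and digested with P1 for the same short time. The only labelled difference between them was the amount of enzyme. The untreated, 1 U and 10 U libraries entered no test between these amounts and are given below only as background or as the next step of the titration.

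P1 is a nuclease that prefers single-stranded nucleic acid and leaves 3′-OH termini. SSiNGLe-P1 tags such termini with a polyA tail and reads their genomic position and strand, so each count below is a number of 3′-OH termini at a base of one strand. The breaks that a cell already carries are counted in the same way. Mitochondria remained in the nuclear pellet, and their DNA is a compact circle in which 22 tRNA genes lie between 13 protein-coding and 2 rRNA genes. In the strand-displacement model of its replication, the new heavy (H) strand is copied from the light (L) strand, and the old H strand is displaced as a single strand until L-strand synthesis starts at the origin OL. The non-coding region (NCR) holds the D-loop, in which a short arrested H strand named 7S DNA stays paired and displaces its counterpart. The comparison addresses where on this circle, and on which strand, the response to P1 set in, and whether any part of the nuclear genome moved with it.

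The 6 libraries held 382515 to 692989 mitochondrial termini and 2803067 to 3225177 nuclear termini. Replicate 3 of 0.01 U stood apart in the share of its mitochondrial termini that lay in the NCR, 81.9% against 65.6% to 72.3% in the other 5 libraries. Because the NCR takes most of the total, this library moves every value scaled to all mitochondrial termini, and results are therefore given on a second scale, per termini outside the NCR. Replicate 3 of 0.1 U stood apart at 1 nuclear gene, BRAF, as described below. Counts of termini carry no molecular identifier, so counting intervals cover counting error only.

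The H strand responded between these amounts. Outside the NCR, the H strand held 48.6%, 49.9% and 50.7% of the termini at 0.01 U and 65.6%, 67.6% and 71.0% at 0.1 U. The groups did not overlap, and the mean rose from 49.7% ± 1.06 (SD, n = 3) to 68.1% ± 2.70 (SD, n = 3). The untreated libraries lay at 46.1%, 48.8% and 49.0%, a range that overlapped with that of 0.01 U. An exact two-sided permutation test over all 20 assignments of the labels gave p = 0.1, the smallest p that 3 against 3 allows.

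The same held when every library was reduced to an equal depth of 382515 termini. The ratio of unique H to unique L positions was 1.03, 1.06 and 1.08 at 0.01 U and 1.36, 1.40 and 1.48 at 0.1 U (exact permutation p = 0.1, again the smallest possible with 3 against 3). The expected number of unique H positions rose from 9514 ± 1048 (SD, n = 3) to 11621 ± 463 (SD, n = 3), without overlap. The expected number of unique L positions was 9050 ± 1198 (SD, n = 3) at 0.01 U and 8230 ± 513 (SD, n = 3) at 0.1 U, and these groups overlapped.

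Set against nuclear termini of the same libraries, the groups overlapped for either strand. H termini outside the NCR came to 0.0337, 0.0240 and 0.0224 per nuclear terminus at 0.01 U and to 0.0282, 0.0371 and 0.0544 at 0.1 U, so that the lowest library of 0.1 U lay below the highest of 0.01 U (exact permutation p = 0.2). L termini outside the NCR came to 0.0356, 0.0242 and 0.0217 at 0.01 U and to 0.0148, 0.0178 and 0.0222 at 0.1 U (exact permutation p = 0.2). All mitochondrial termini together were 0.208 ± 0.0348 (SD, n = 3) and 0.184 ± 0.0543 (SD, n = 3) per nuclear terminus (exact permutation p = 0.6). The amount of mitochondria in a pellet and the number of breaks per mitochondrial genome cannot be told apart in this ratio.

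**Figure D1:**
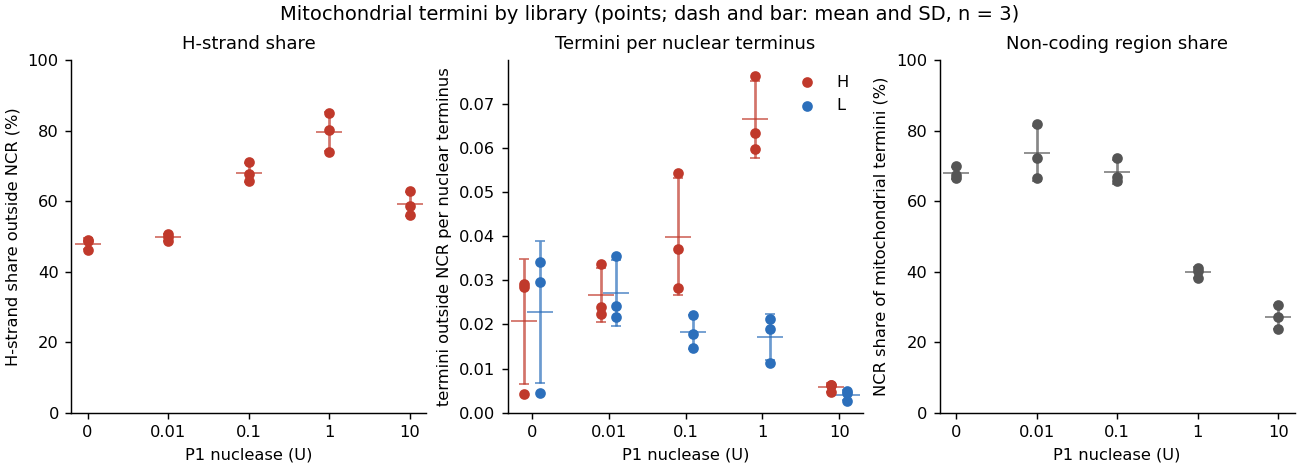
Each point is 1 library, dashes and bars are the mean and SD of 3 libraries, and the x axes give P1 in U. The panels plot the H-strand share of termini outside the NCR (%), the H and L termini outside the NCR per nuclear terminus, and the NCR share of mitochondrial termini (%); the H-strand share separated at 0.1 U (65.6% to 71.0%) from 0.01 U (48.6% to 50.7%), while the NCR share of the 2 groups overlapped.

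The genome was then divided into 83 bins of 200 bp on each strand. With edgeR's quasi-likelihood test on counts scaled to all mitochondrial termini, 35 of 83 H-strand bins were higher at 0.1 U and none was lower, against 21.1% of all 166 bins called higher. No L-strand bin was called in either direction, and none had an unadjusted p under 0.05. When unique sites at equal depth were counted instead, 43 H-strand bins were higher (25.9% of all bins), none was lower and no L-strand bin was called. DESeq2 called 69 H-strand bins higher and 2 lower, and on the L strand 3 higher and 66 lower (43.4% of all bins higher and 41% lower). With TMM scaling, edgeR called 41.6% of all bins higher and 53.6% lower. Both take their scaling from these same bins, so a rise across many H-strand bins can lower the L-strand values. With nuclear termini as the library size, 14 H-strand bins were higher (8.43% of all bins). Per termini outside the NCR, edgeR called 65 H-strand bins higher and 13 lower and 81 L-strand bins lower (39.2% of all bins higher and 56.6% lower). The shares of both strands outside the NCR sum to a constant on this scale. On the nuclear scale, which does not have this property, all 83 L-strand bins were below 0 with a median log2 change of -0.58, and none was called. Leaving out replicate 3 of 0.01 U gave 47 higher and 5 lower H-strand bins and 73 lower L-strand bins on the main scale. Leaving out replicate 3 of 0.1 U gave 13 higher H-strand bins, and leaving out replicate 2 of 0.01 U gave 14.

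The called bins were spread unevenly. All 6 bins between MT-CYB and MT-TP rose, as did 9 of the 12 bins from MT-TL1 to MT-TW, the bin over MT-TA, MT-TN and MT-TC beside OL, and 8 of the 13 bins from MT-TH to MT-TE. From MT-CO1 to MT-CO3 4 of 21 bins rose, and from MT-TG to MT-ND4 3 of 11. None of the 13 bins over the rRNA genes was called, and their log2 changes lay between -0.39 and -0.03, whereas the median over all 83 H-strand bins was 0.67. Per termini outside the NCR, all 13 rRNA bins fell (median log2 change -0.48), and they were the only H-strand bins called lower on that scale. L-strand bins showed no such map, with a median log2 change of -0.40 and 80 of 83 values below 0 on the main scale.

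The 6 H-strand bins with the largest called rise lay in 2 places, around the NCR with its neighbouring genes and over MT-TQ. The bin chrM:16201-16400 in the NCR held 4238, 4303 and 4772 termini per 1000000 mitochondrial termini at 0.01 U and 15832, 13294 and 21429 at 0.1 U. It rose 3.80-fold (log2 change 1.93, SE 0.28, adjusted p = 2.13e-09). The bins chrM:16401-16571 and chrM:1-200, which join across the end of the linear sequence, rose 3.37-fold and 3.36-fold. In the order of the circle these 3 bins lie in the D-loop on the side of the rRNA genes from the 7S DNA 3′ end. The bin chrM:15801-16000, with the end of MT-CYB and with MT-TT and MT-TP, held 1204, 1101 and 786 per 1000000 at 0.01 U and 3430, 2914 and 3974 at 0.1 U, a rise of 3.34-fold (adjusted p = 3.17e-06). The bin chrM:4201-4400, with the end of MT-ND1, MT-TI and MT-TQ, rose 3.17-fold, and chrM:15601-15800 within MT-CYB rose 3.05-fold. In each of these 6 bins, which were picked for their rise, the 3 libraries of 0.1 U lay above the 3 of 0.01 U. Such separation was common on the H strand. It was also seen in 34 of the 39 H-strand segments described below.

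**Figure D2:**
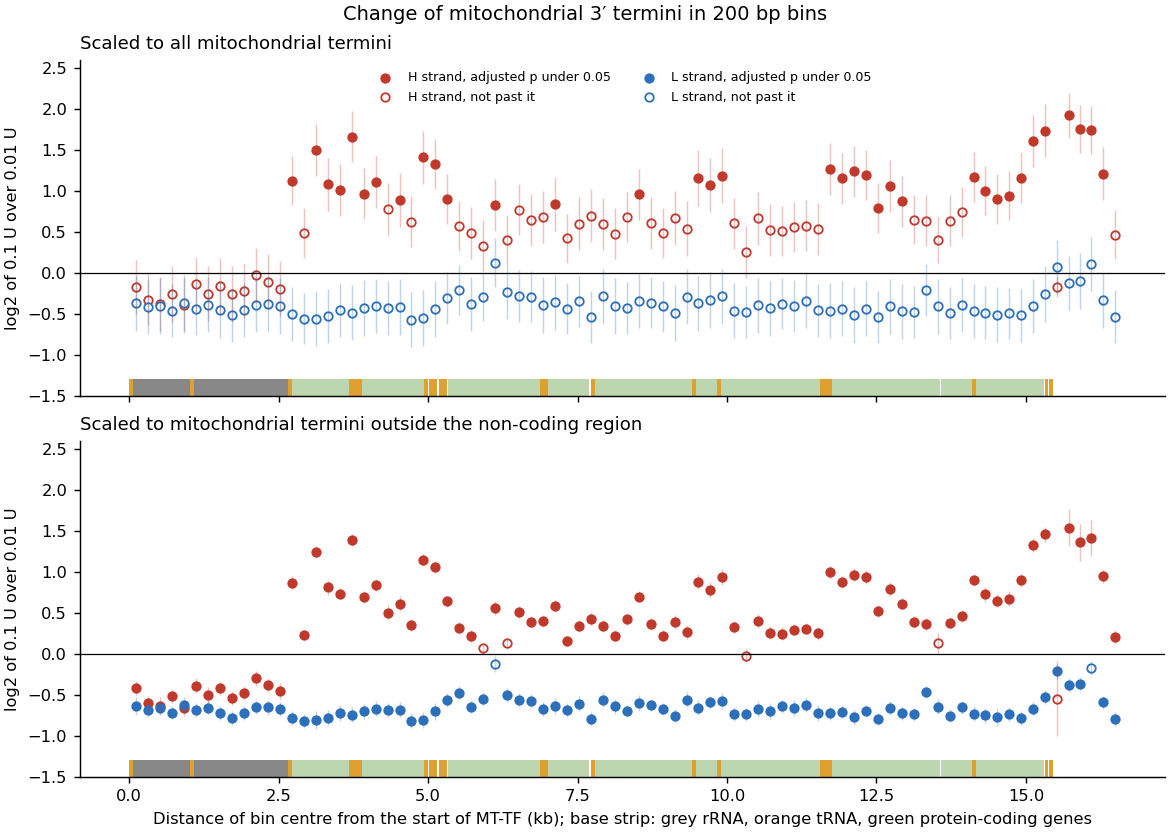
Each point is a 200 bp bin on the H (red) or L (blue) strand, with its log2 ratio of 0.1 U over 0.01 U and its SE on the y axis and the distance of the bin centre from the start of MT-TF (kb) on the x axis; filled points passed an adjusted p of 0.05 in edgeR. On the main scale (top) 35 H-strand bins are filled and none over the rRNA genes, and per termini outside the NCR (bottom) 65 H-strand bins rose while the 13 rRNA bins and 81 L-strand bins fell.

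The bin between these neighbours behaved differently from them. The bin chrM:16001-16200 holds the H-strand positions with the most termini, at the 3′ end of 7S DNA, and held 639873, 699516 and 800225 per 1000000 mitochondrial termini at 0.01 U and 609558, 680782 and 609679 at 0.1 U. Its log2 change was -0.17 (SE 0.12, adjusted p = 0.298). The 3 strongest positions, 16107, 16108 and 16106, held together 52.9%, 57.4% and 66.7% of all mitochondrial termini at 0.01 U and 48.9%, 55.8% and 49.8% at 0.1 U (exact permutation p = 0.2), and none of the 3 was called. The NCR as a whole held 73.5% ± 7.81 (SD, n = 3) and 68.2% ± 3.45 (SD, n = 3) of the termini (exact permutation p = 0.4). At 1 U it held 38.1%, 40.3% and 41.0%. The untreated libraries held 66.7%, 67.4% and 70.1% there, within the range of the 6 libraries compared.

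By gene class, the tRNA genes rose most. When the 37 genes, OL and the NCR were counted per strand, 24 of 39 H-strand segments were called higher and none lower, and no L-strand segment was called (30.8% of all 78 segments higher), where 1 L-strand segment had an unadjusted p under 0.05 and DESeq2 called 28 L-strand segments lower. Per termini outside the NCR, 43.6% of the segments were higher and 51.3% lower, and TMM gave the same shares. On the H strand 18 of 22 tRNA genes rose, with a median log2 change of 1.39, against 5 of 13 protein-coding genes with a median of 0.73 and 0 of 2 rRNA genes. The median over all 39 H-strand segments was 1.00. The division into classes was made after these values were seen and is given without a test. Leaving out replicate 3 of 0.1 U gave 14 higher H-strand segments, and leaving out replicate 3 of 0.01 U gave 29 with 42.3% of all segments lower.

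Per base and per 1000000 termini outside the NCR, the tRNA genes held 22.8 ± 0.902 (SD, n = 3) H-strand termini at 0.01 U and 46.9 ± 1.73 (SD, n = 3) at 0.1 U, 2.06-fold more. The protein-coding genes went from 34.5 ± 0.995 to 48.9 ± 2.53, or 1.42-fold. The rRNA genes went from 26.6 ± 0.794 to 18.7 ± 1.67, a factor of 0.702. The ratio of tRNA to protein-coding density within a library does not depend on any scaling. It was 0.65, 0.67 and 0.66 at 0.01 U, as in the untreated libraries (0.64 to 0.67), and 0.98, 0.96 and 0.95 at 0.1 U. For the L strand this ratio was 0.52 ± 0.01 (SD, n = 3) and 0.51 ± 0.02 (SD, n = 3). The ratio of rRNA to protein-coding density on the H strand went from 0.77 ± 0.05 to 0.38 ± 0.05 (SD, n = 3 each). In the untreated libraries that ratio was 0.84 ± 0.03 (SD, n = 3), with a range that overlapped with that of 0.01 U.

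**Figure D3:**
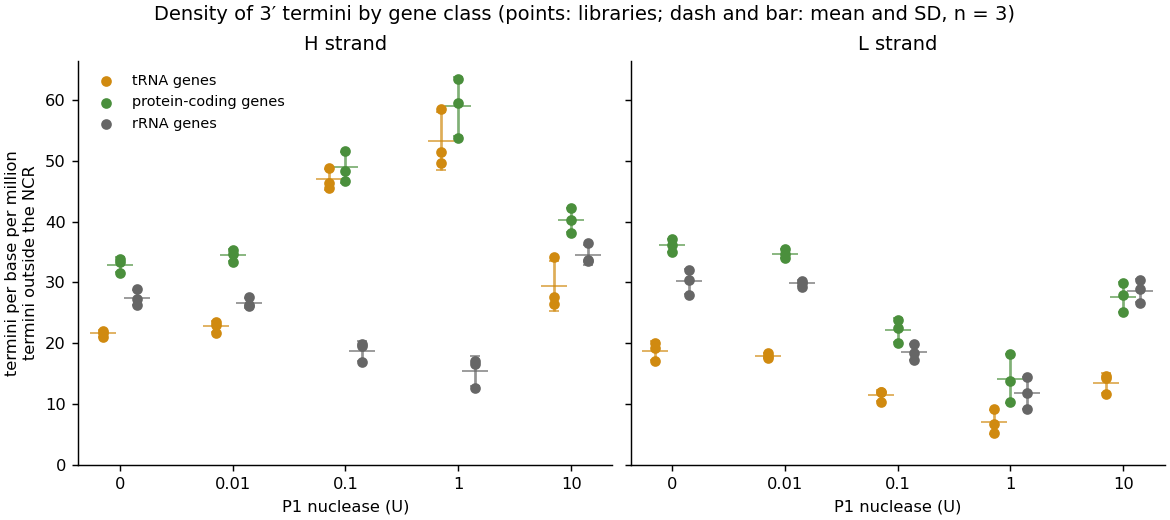
Points are libraries and dashes with bars the mean and SD of 3, plotted as termini per base per 1000000 termini outside the NCR (y axis) against P1 in U (x axis) for tRNA, protein-coding and rRNA genes on each strand. On the H strand tRNA genes went from a mean of 22.8 at 0.01 U to 46.9 at 0.1 U and stood beside the protein-coding genes (48.9), while rRNA genes went from 26.6 to 18.7; on the L strand the means of all 3 classes were lower at 0.1 U.

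The tRNA genes with the largest rises were MT-TP, MT-TT and MT-TQ, named after their values were seen. They are printed here with MT-TA, of the cluster at OL, and with MT-TF and MT-TV, which precede MT-RNR1 and MT-RNR2 and were not called. MT-TL1, which follows MT-RNR2, was called higher, 2.49-fold (adjusted p = 0.000397). The sequences are those of the reference transcripts of GENCODE, read as the tRNA gene's own strand, with the anticodon in capitals. Positions on chrM are those of the annotation and can differ by a few bases from those of the files.

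MT-TP (tRNA for proline, minus strand, chrM:15956-16023): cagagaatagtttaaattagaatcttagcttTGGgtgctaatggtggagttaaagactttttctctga

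MT-TT (tRNA for threonine, plus strand, chrM:15888-15953): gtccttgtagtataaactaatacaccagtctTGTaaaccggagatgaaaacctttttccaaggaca

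MT-TQ (tRNA for glutamine, minus strand, chrM:4329-4400): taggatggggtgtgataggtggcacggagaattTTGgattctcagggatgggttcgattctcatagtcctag

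MT-TA (tRNA for alanine, minus strand, chrM:5587-5655): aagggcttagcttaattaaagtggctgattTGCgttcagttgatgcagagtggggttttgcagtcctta

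MT-TF (tRNA for phenylalanine, plus strand, chrM:577-647): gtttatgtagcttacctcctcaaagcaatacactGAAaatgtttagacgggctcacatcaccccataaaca

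MT-TV (tRNA for valine, plus strand, chrM:1602-1670): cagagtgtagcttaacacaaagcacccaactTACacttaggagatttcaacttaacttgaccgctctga

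MT-TP on the H strand held 236, 195 and 149 termini per 1000000 mitochondrial termini at 0.01 U and 863, 781 and 1178 at 0.1 U. The rise was 4.87-fold (log2 change 2.28, SE 0.33, adjusted p = 2.34e-09), and the groups lay far apart. MT-TT went from 255, 238 and 174 to 941, 910 and 1127 per 1000000 termini, 4.47-fold. MT-TQ went from 741, 713 and 435 to 2970, 2051 and 2791 per 1000000 termini, 4.14-fold. In the untreated libraries MT-TT held 175 to 365 and MT-TQ 687 to 1034 per 1000000 termini, below every library of 0.1 U. MT-TF held 968, 755 and 477 per 1000000 at 0.01 U and 795, 788 and 814 at 0.1 U, and MT-TV held 276, 274 and 137 and then 343, 286 and 247, so that the groups overlapped in both.

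The rise took in tRNA genes annotated on either strand. On the H strand 11 of 14 tRNA genes of the plus strand rose, with a median log2 change of 1.31, and 7 of 8 of the minus strand, with a median of 1.48; over all genes the counts were 16 of 28 and 7 of 9. How far the gain was spread over the bases of a gene differed. Of all tested H-strand positions 1404 of 3122 were called higher, 27% of the positions of both strands together. In MT-TQ 20 of its 23 tested positions were called higher, in MT-TA 16 of 19, in MT-TP 7 of 8 and in MT-TT 9 of 10, and the position that gained most took 10.5%, 18.3%, 17.9% and 20.1% of the gain of these genes. They have 72, 69, 68 and 66 bases, most of which did not enter the test. Positions could enter through their counts at the larger amount of P1. High called fractions in genes with a large rise are therefore partly built in and do not show how much of a gene gained. In MT-TH 3 of 6 positions were called and 48.5% of the gain lay at 1 of them, in MT-TD 2 of 4 and 31.7%, and in MT-TG, with 1 tested position, 33.1%. MT-TI and MT-TQ overlap by a few bases, and termini there count for both.

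OL is the stem-loop from which L-strand synthesis starts, and 5 tRNA genes surround it. OL on the H strand held 427, 399 and 216 termini per 1000000 at 0.01 U and 761, 634 and 797 at 0.1 U, a rise of 2.11-fold (adjusted p = 0.00341). MT-TW rose 3.49-fold, MT-TA 3.45-fold and MT-TN 2.74-fold, all on the side of MT-ND2 or between it and OL. MT-TC rose 2.00-fold and MT-TY 2.32-fold on the other side. None of these segments was called on the L strand.

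Among the protein-coding genes, 5 rose on the H strand. MT-ND3, a subunit of complex I of the respiratory chain, rose 2.15-fold (adjusted p = 0.00416), and MT-CYB, the cytochrome b of complex III, 2.14-fold (adjusted p = 0.0012). MT-ND1, MT-ND2 and MT-ND5, also of complex I, rose 2.12-fold, 1.83-fold and 1.75-fold. With nuclear termini as the library size, 19 H-strand segments were called (24.4% of all segments), and MT-ND2 (adjusted p = 0.123), MT-ND5 (adjusted p = 0.157), MT-TC, MT-TI and MT-TH were no longer among them. Scaled to all mitochondrial termini, the remaining 8 protein-coding genes did not pass the test. Their log2 changes on that scale ran from 0.52 for MT-ND4 up to 0.75 for MT-ND6. The subunits of cytochrome oxidase MT-CO1, MT-CO2 and MT-CO3 were at 0.56, 0.61 and 0.57. Per termini outside the NCR all 13 were called higher. MT-RNR1 and MT-RNR2, the rRNAs of the mitochondrial ribosome, had log2 changes of -0.33 and -0.19 (adjusted p = 0.374 and 0.611) on the main scale and were both called lower per termini outside the NCR (log2 changes -0.59 and -0.45).

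At single bases, 1404 of 3122 tested H-strand positions were higher and 5 lower, and 1 of 2087 L-strand positions was higher and 54 lower (27% of all 5209 positions higher and 1.13% lower). The called rises covered 152 of 230 tested positions in tRNA genes, 270 of 437 in the NCR, 967 of 2184 in protein-coding genes and 2 of 241 in rRNA genes. Most bases had too few termini to be tested. Over all bases, tested or not, the called shares in these classes were 10.1%, 24%, 8.53% and 0.0796%, beside 8.47% for the whole H strand. On that count tRNA genes stood only a little above protein-coding genes. Leaving out single replicates gave 921 to 1683 higher H-strand positions, the lowest without replicate 3 of 0.1 U, where 0.201% of all positions were lower. DESeq2 called 20.9% of the positions higher and 6.09% lower. The share called lower was 21.7% per termini outside the NCR, 20.1% with TMM and 10% without replicate 3 of 0.01 U, where 49 H-strand and 532 L-strand positions were lower.

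The largest rises were at bases that had carried almost no termini. Bases with so few termini at 0.01 U entered the test only through their counts at 0.1 U. Large rises from low counts are therefore built into this list. Position 14717 in MT-TE held 3, 1 and 0 termini at 0.01 U and 34, 45 and 58 at 0.1 U. Per library size that is 39.0 times as many, with a 95% exact counting interval of 14.9 to 145. Position 8964 in MT-ATP6 held 0, 1 and 1 and then 22, 13 and 26 termini, 34.7 times as many (interval 9.21 to 293). Position 4345 in MT-TQ held 1, 1 and 0 and then 12, 19 and 25, 31.9 times as many (interval 8.43 to 270). Position 8514 in MT-ATP8 held 0, 1 and 3 and then 25, 25 and 35, 24.2 times as many (interval 9.11 to 90.9). The untreated libraries held 0 to 3 termini at each of these 4 bases. The adjusted p-values in edgeR were at most 2.32e-09. These 4 bases were picked for their rise, so the p-values and intervals are not support beyond that choice. The only L-strand position called higher was 185 in the NCR, with 8, 8 and 9 termini at 0.01 U and 16, 15 and 24 at 0.1 U (2.51 times as many per library size, adjusted p = 0.0287 in edgeR). It was not called in 5 of 11 alternatives, namely with DESeq2 and without replicate 1 or 2 of 0.01 U or replicate 1 or 3 of 0.1 U, and its adjusted p reached 0.124.

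The next step, from 0.1 U to 1 U, differed in what it raised. Per termini outside the NCR, tRNA gene density on the H strand went from 46.9 to 53.2, a factor of 1.13, after the factor of 2.06 of the step before. For protein-coding genes the corresponding factors were 1.20 and 1.42. These factors depended on the scale. Per mitochondrial termini, the tRNA genes rose by factors of 2.55 and then 2.15 and the protein-coding genes by 1.75 and then 2.29. Per nuclear termini, the factors were 2.21 and then 1.66 for tRNA genes and 1.52 and then 1.77 for protein-coding genes. The difference between both steps was tested in one edgeR fit over 3 amounts, in which the 0.1 U libraries enter both steps. Per termini outside the NCR, 16 of 39 H-strand segments rose more in the step from 0.01 U to 0.1 U, and none rose less (20.5% of all 78 segments). Of these 16 segments, 14 were tRNA genes and the others MT-ND3 and OL. The difference between the steps was not tested per nuclear termini. This use of segments was chosen after the values were seen. MT-TP had a log2 change of 2.01 and then 0.08 (adjusted p for the difference = 0.000518), MT-TT of 1.89 and -0.01 (adjusted p = 0.000518), and OL of 0.82 and -0.62 (adjusted p = 0.000518). MT-TP and MT-TT were named for their rise from 0.01 U to 0.1 U, which is part of the tested difference. Their p-values are therefore not support beyond that choice. Of the 200 bp bins, 13 H-strand bins were called on this scale (7.83% of all bins; 6.02% with TMM), among them those over MT-TQ, over MT-TT and MT-TP, and beside OL. Scaled to all mitochondrial termini, the only call among segments was the NCR on the H strand (adjusted p = 0.0152) and the only call among bins was chrM:16001-16200 with the 7S DNA end (0.602% of all bins, adjusted p = 6.06e-06), whose share fell from 0.1 U to 1 U. On that scale, leaving out replicate 3 of 0.01 U gave 2 H-strand bins with a larger and 24 H-strand and 11 L-strand bins with a smaller change in the lower step (1.2% and 21.1% of all bins), so the direction of the difference depended on this library and on the scale.

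**Figure D4:**
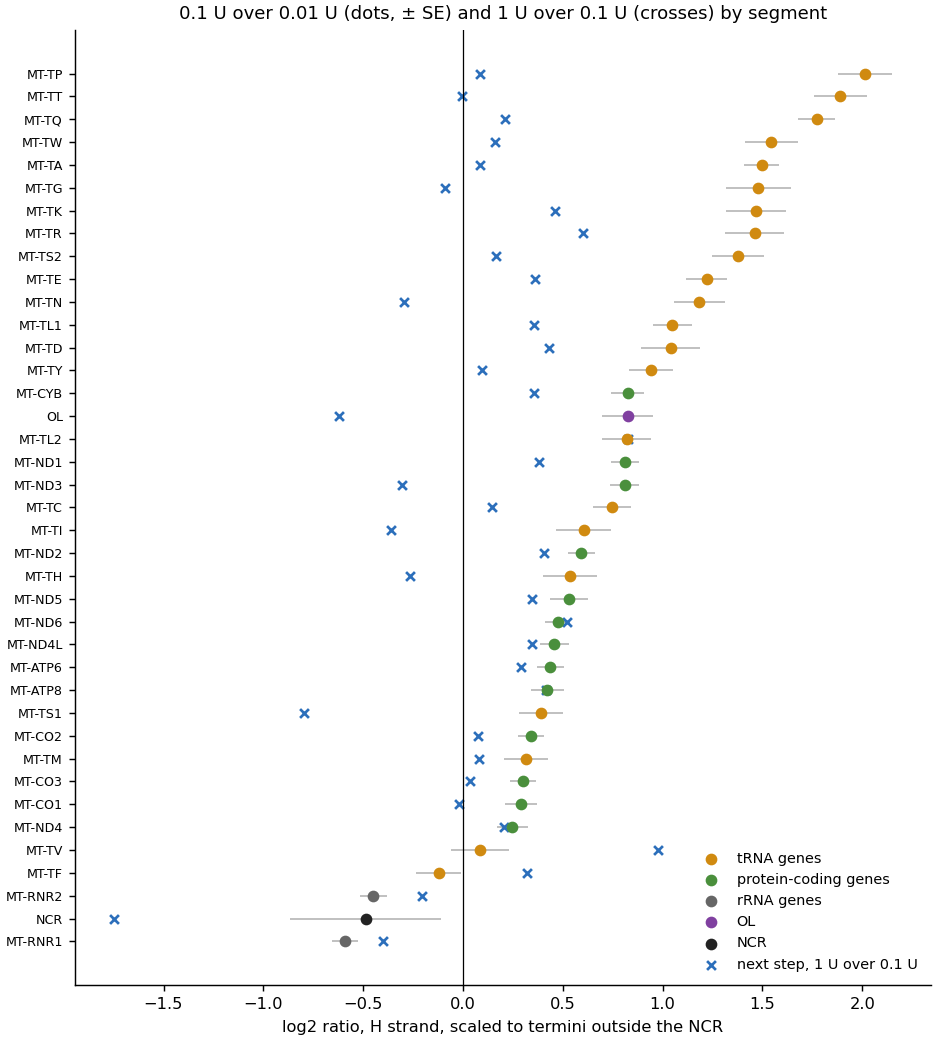
Each row is an annotated segment on the H strand, with its log2 ratio of 0.1 U over 0.01 U (dots, ± SE, coloured by class) and of 1 U over 0.1 U (crosses) per termini outside the NCR on the x axis. MT-TP, MT-TT and MT-TQ lie at 1.77 to 2.01 in the lower step and at -0.01 to 0.21 in the next, and the rRNA genes and the NCR lie below 0 in both.

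In the nuclear genome hardly any feature was called. Unique sites are positions with at least 1 terminus on chromosomes 1 to 22 and X. They were compared in 28183 bins of 100 kb, 16153 bodies of protein-coding genes and 242 of 20098 promoters. These promoters were the windows within 1 kb of a gene start that had enough sites for a test. edgeR called 3 bins higher and none lower (0.0106% of the bins), 1 gene higher and none lower (0.00619% of the genes) and no promoter. Among promoters, 13 had an unadjusted p under 0.05. DESeq2 called no feature of the 3 kinds, with 232 bins, 109 genes and 2 promoters at an unadjusted p under 0.05. It left 1 bin without an adjusted p, chrX:74800001-74900000, which had the smallest p in edgeR (log2 change 2.19 in DESeq2). DESeq2 thus gave no call in either direction for that bin. The tested bins held a median of 81.5 sites per library, the genes 48.2 and the promoters 10.7, so that only large changes were detectable in promoters. The paper places only a small fraction of nuclear sites in its single-stranded regions. Counts of all sites in a bin or gene can therefore miss changes confined to such regions. Among the tested promoters, the smallest p-values in edgeR belonged to AIFM3 and PARP2, the latter an enzyme of DNA break repair. AIFM3 held 20, 18 and 18 sites at 0.01 U against 12, 10 and 8 at 0.1 U. PARP2 held 17, 15 and 28 against 16, 10 and 8 (adjusted p = 0.707 for both).

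The 4 nuclear calls rested on 1 library. BRAF, a kinase of the MAP kinase pathway at chr7:140419127-140624729, held 304, 247 and 259 sites at 0.01 U and 281, 253 and 1375 at 0.1 U, where the last value is replicate 3 (fold 2.37, adjusted p = 2.56e-17). In its exons the counts were 7, 9 and 8 and then 10, 3 and 1078, of which 598 carried the plus label. Outside the exons they were 297, 238 and 251 and then 271, 250 and 297. The called bins chr7:140400001-140500000 and chr7:140500001-140600000 overlap BRAF, and the third, chrX:74800001-74900000, holds its pseudogene BRAFP1, a near-identical copy, with 1, 0 and 1 and then 2, 1 and 457 sites. Without replicate 3 of 0.1 U, no bin or gene was called and the log2 change of BRAF was -0.01. The groups overlapped in all 4 features, and sites in BRAF exons and in BRAFP1 cannot be assigned to 1 of them with certainty.

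Counting all termini rather than unique sites gave 10 bins higher and 1 lower (0.0355% and 0.00355% of 28193 bins). Of the 8 bins called in this way only, 1 had groups that did not overlap. It was chr17:22000001-22100000, in which the annotation places pseudogenes of mitochondrial genes such as MTCYBP13, MTND1P15 and MTCO3P13. A single plus-label site in it, at chr17:22020694, held 17, 11 and 15 termini at 0.01 U and 46, 43 and 96 at 0.1 U. Scaled per 1000000 nuclear termini that is 4.83 ± 0.828 (SD, n = 3) and 20.9 ± 9.80 (SD, n = 3), a factor of 4.10. The rest of the bin held 96, 76 and 77 termini at 0.01 U and 107, 101 and 153 at 0.1 U, also without overlap, a factor of 1.44 per 1000000 nuclear termini. The site held 1, 5 and 5 termini in untreated libraries, 144, 111 and 125 at 1 U and 6, 25 and 5 at 10 U. The 200 bases from this site onwards align to mitochondrial DNA with 183 identical bases (91.5%), from the end of the linear mitochondrial sequence across its start, within the NCR. The stretch before the site aligns with 156 of 190 bases identical (82.1%). The nuclear files came from an alignment to the nuclear and mitochondrial genomes together, and how reads of this stretch were placed was not tested. The site was singled out after its values were seen.

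**Figure D5:**
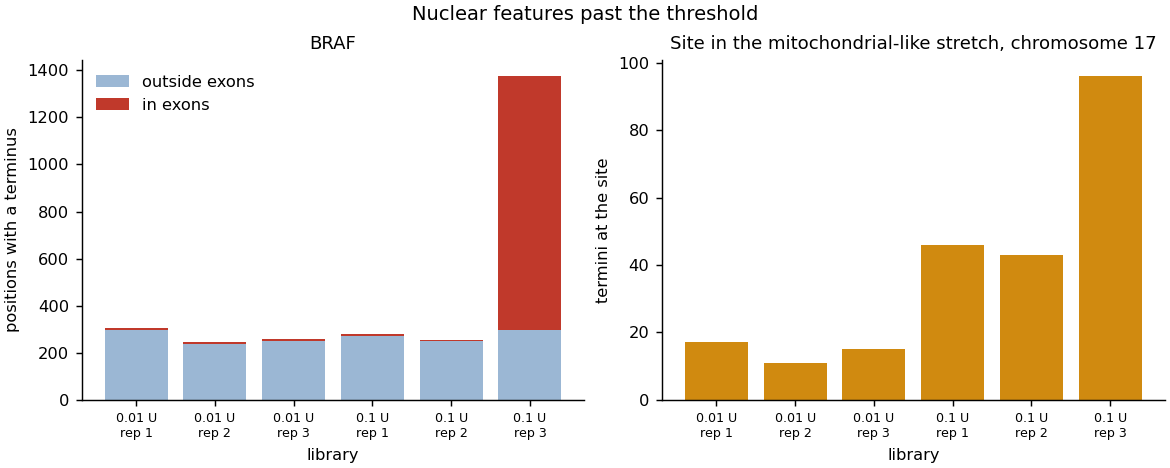
Bars are single libraries (x axis), with positions that hold a terminus in BRAF on the left and termini at 1 site of the mitochondrial-like stretch of chromosome 17 on the right (y axes, counts). BRAF exons held 1078 positions in replicate 3 of 0.1 U and at most 10 in the other 5 libraries, and the chromosome 17 site held 43 to 96 termini at 0.1 U and 11 to 17 at 0.01 U.

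Shares of nuclear sites by class differed little. Exons held 6.01% ± 0.0548 (SD, n = 3) of sites at 0.01 U and 6.11% ± 0.0425 (SD, n = 3) at 0.1 U, and windows within 1 kb of gene starts held 2.47% ± 0.0611 and 2.46% ± 0.0525. None of the 9 classes, which also covered introns, intergenic sequence, gene ends, chromosome ends, the strand label within genes, G-quadruplex motifs and positions with several termini, had groups that did not overlap. The smallest exact permutation p was 0.2, and the smallest after Benjamini-Hochberg adjustment over the 9 classes was 0.6. Of the listed nuclear gene groups, 45 of 82 genes of cytosolic ribosomal proteins, 12 of 69 replication-dependent histone genes, 15 of 15 fragile-site genes and 12 of 12 genes of mitochondrial DNA replication were tested. None was called, and their median log2 changes were 0.07, -0.02, -0.03 and 0.07, beside 0.00 over all genes tested. The factors that copy mitochondrial DNA, such as the polymerase POLG and the helicase TWNK, are in the last list.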

How the data were processed

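3′-OH termini of K562 were analysed in 3 replicates each of 0.1 U and 0.01 U of P1. Per the paper's methods, the authors trimmed reads, placed them with BWA on the mitochondrial genome alone and, for the nuclear files, on the whole hg19 genome, and deposited 1 count for each base and strand with termini. The tools in the submitters' processing notes were BWA 0.7.12 and SICER 1.1. The mitochondrial files also hold RPM values that the authors scaled to each sample's total. These values, the clustered sites and the region lists, which hold the authors' own comparisons with untreated samples, were not used. Whether duplicates were removed from the counts is not given in the sources used here, and PCR copies can raise them. Plus labels were taken as the H strand. The labels number the replicates, which the methods call biological. For its region calls, the paper paired treated with untreated replicates. Same-numbered libraries of the groups compared here did not deviate together in every pair, and the main fit used no block.

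Counts were tested with edgeR 4.0.16 (glmQLFit, glmQLFTest) and Benjamini-Hochberg adjustment at 0.05 over all features. Mitochondrial library size was the total of mitochondrial termini, with no filter on bins and segments. Mitochondrial positions were kept for the test by filterByExpr. Nuclear unique sites used TMM and filterByExpr. Single values were tested by exact two-sided permutation of 3 against 3 on log2 values. DESeq2 1.42.0, other library sizes, bin widths, counting, filters and omission of each replicate were alternatives. Genes came from GENCODE 44 on GRCh37. The mitochondrial files run to position 16571, beyond the reference of 16569 bases, so no mitochondrial sequence was read by coordinates of the files, and gene positions were not converted.

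Fits were tested on simulated data. The members and gene lists were chosen with earlier results of these data known. Named were the 6 H-strand bins with the largest called rise, the NCR, OL with its 5 tRNA genes, the rRNA and protein-coding genes, up to 4 called positions per strand with the largest rise, the 3 strongest H positions, and called nuclear features or otherwise the 2 with the smallest p.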

Additional observations from a re-analysis of the deposited data

How the results depend on the processing

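Directions of the H-strand share and of the H to L ratio of unique sites held under all alternatives run. Counts of calls depended on the scaling. H-strand bins called higher were 65 with the total outside the NCR, 14 with nuclear termini, 69 with TMM, 69 with DESeq2, 61 without the 10 strongest positions, 57 with all 15 samples, 73 with 100 bp and 15 with 500 bp bins. H-strand bins called lower were 13, 11, 2 and 13 with the total outside the NCR, TMM, DESeq2 and without the 10 strongest positions, where L-strand bins called lower were 81, 78, 66 and 81. DESeq2 called 3 L-strand bins higher. In the same 4 settings, 2 H-strand segments each were lower, and 38, 38, 28 and 39 L-strand segments. H-strand positions called lower were 125 (outside the NCR), 136 (TMM), 30 (DESeq2), 1 (at least 30 termini) and 1 (replicate block). L-strand positions called lower were 861, 909 and 287 in the first 3 of these, and those called higher 0 with DESeq2 and 2 with at least 30 termini. Bins with a larger first step were 13 outside the NCR and 10 with TMM, and 16 segments outside the NCR, an alternative chosen after seeing the data. Nuclear bins were 10 higher and 1 lower with all termini and 0 higher with DESeq2; genes were 3 with all termini, 2 with no filter and 0 with DESeq2; promoters were 1 with no filter. Without the 10 strongest positions, the factor of the NCR share turned from 0.930 to 1.13 and that of mitochondrial per nuclear termini from 0.867 to 1.10. On the H strand, the NCR log2 change turned to 0.29 with unique sites at equal depth and 0.23 without the 10 strongest positions.

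Without single replicates, H-strand bins were 13 to 47 higher and 0 to 5 lower, L-strand bins 0 to 73 lower, H-strand segments 14 to 31 higher and 0 to 1 lower, L-strand segments 0 to 32 lower. Positions were 921 to 1683 higher and 0 to 49 lower on the H strand and 0 to 3 higher and 9 to 532 lower on the L strand. Step differences were 1 to 2 higher and 0 to 24 lower on the H strand and 0 to 11 lower on the L strand, the lower calls all without replicate 3 of 0.01 U. Nuclear bins were 0 to 3 and genes 0 to 1. The factor of mitochondrial per nuclear termini was 0.761 to 1.04, that of the share of sites within 1 kb of gene starts 0.982 to 1.01 and that of G-quadruplex motifs 0.963 to 1.01. For segments that turned sign without replicate 1 of 0.01 U, the log2 change over the omissions ran from -0.355 to 0.0414 for NCR_L, from -0.418 to 0.23 for MT-TC_L, from -0.401 to 0.0113 for MT-CO1_L and from -0.412 to 0.0468 for MT-RNR2_H, where the last letter is the strand. MT-TC_L was 0.0373 with unique sites at equal depth. The causes were not tested.

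The replicate numbers are shared between groups. Same-numbered libraries correlated at 0.644, -0.0242 and 0.4753 over bins, and libraries of unlike number at -0.596 to 0.121. The main fit did not take them as pairs, and a replicate block was run as an alternative. With the replicate block, 28 H-strand bins, 23 H-strand segments and 1405 H-strand positions were higher, and sign-flip tests within numbers cannot go below 0.25. Depth limits the nuclear promoters most, with 10.7 sites per library.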

Other observations

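When all termini were counted, 1 nuclear bin was called higher and 1 lower with most of the termini of a single library at 1 position. In chr5:128000001-128100000, replicate 1 of 0.1 U held 1218 termini against 52 to 81 in the other 5 libraries, 1002 of them at a single base. In chr5:81000001-81100000, replicate 3 of 0.01 U held 1196 termini against 104 to 126, 1066 of them at a single base. Their numbers of unique sites were 50 to 92 and 96 to 114 in the 6 libraries. Without a filter on low counts, the beta-globin gene HBB was also called, with exon sites of 4, 2 and 1 at 0.01 U and 1, 68 and 4 at 0.1 U, so again through 1 library.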
